A study of Mus musculus with 12 samples.

Results

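Voltage-gated calcium channels were followed in the sciatic dorsal root ganglia (DRG) of mice through the RNA of 10 of their subunit genes. The genes were taken by name from a table of reads counted for 44345 gene names. They comprise the pore-forming α1 genes Cacna1a, Cacna1b, Cacna1c, Cacna1e and Cacna1h, the α2δ genes Cacna2d1, Cacna2d2 and Cacna2d3, and the β genes Cacnb3 and Cacnb4. All 10 were among the 16238 genes that passed the filter on low counts, and the smallest number of reads on any of them in any sample was 52, for Cacna1e.

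A voltage-gated calcium channel opens when the membrane depolarises and lets calcium into the cell. Its α1 subunit forms the pore, the cytoplasmic β subunit and the extracellular α2δ subunit bring the channel to the membrane and shape its gating, and the low-voltage-activated T-type pores can work without them. In sensory neurons these channels trigger transmitter release at the central terminals, set excitability in the cell body and carry calcium signals along the axon. The α2δ-1 and α2δ-2 proteins bind the gabapentinoid drugs, and α2δ-1 is known to rise in DRG neurons after nerve injury.

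RNA from whole sciatic (L4 to L6) DRG of C57BL/6 mice aged 5 to 8 weeks was sequenced in 12 samples, with the ganglia of both sides of 2 mice pooled in each sample. Mice lived for 10 days in Standard Housing (SH) or Environmental Enrichment (EE) and then had the sciatic nerve cut through (sciatic nerve axotomy, SNA) or exposed without a cut (Sham), and ganglia were taken 24 h later. There were 4 groups of 3 samples, sham (SH Sham and EE Sham) and cut (SH SNA and EE + SNA), and the labels name no transgene or drug. The study compared them to ask how housing and axotomy act on gene expression in DRG. Its text describes EE Sham as an earlier dataset, so for this group housing and dataset cannot be told apart. In EE + SNA against EE Sham, surgery and dataset cannot be told apart either. The interaction and the change over both housings also use EE Sham and share this limit.

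Reads counted on genes numbered 11343579 in the shallowest sample and 22871460 in the deepest. Atf3, a transcription factor induced by axon injury, lay between 109.9 and 167.8 CPM (counts scaled to library size by TMM) in the 6 sham samples and between 453.7 and 548.6 CPM in the 6 SNA samples, as the labels give them. All 10 genes of a sensory neuron list were measured, among them Rbfox3, Snap25 and Scn9a. SH SNA sample 2 stood apart in 8 skeletal muscle genes, which summed to 986.8 CPM there and to between 4.11 and 169.2 CPM in the other samples.

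Cacna2d1 and Cacna2d2, whose RNA levels changed in opposite directions after SNA, lie on different chromosomes. In GRCm38, Cacna2d1 (ENSMUSG00000040118) spans 439.8 kb at chr5:15934691-16374511 on the plus strand and Cacna2d2 (ENSMUSG00000010066) spans 129.7 kb at chr9:107399612-107529343 on the plus strand. The 250 bases before the RefSeq start of each gene are shown for comparison, 5′ to 3′, with GC boxes (GGGCGG on either strand, the sequence bound by Sp-family factors) in capitals. The stretches are chr5:15934441-15934690 for Cacna2d1 and chr9:107399630-107399879 for Cacna2d2, both read on the plus strand of the RefSeq GRCm38.p6 assembly. The Cacna2d1 stretch ends before the gene span given above. The Cacna2d2 stretch lies inside its span, which starts at 107399612, so the stretches differ in position relative to the annotated genes.
Cacna2d1: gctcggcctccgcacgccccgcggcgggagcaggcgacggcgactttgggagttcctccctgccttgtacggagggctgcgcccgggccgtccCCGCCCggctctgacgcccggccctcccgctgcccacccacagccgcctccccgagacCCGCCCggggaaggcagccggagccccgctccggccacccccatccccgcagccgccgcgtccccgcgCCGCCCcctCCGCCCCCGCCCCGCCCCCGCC
Cacna2d2: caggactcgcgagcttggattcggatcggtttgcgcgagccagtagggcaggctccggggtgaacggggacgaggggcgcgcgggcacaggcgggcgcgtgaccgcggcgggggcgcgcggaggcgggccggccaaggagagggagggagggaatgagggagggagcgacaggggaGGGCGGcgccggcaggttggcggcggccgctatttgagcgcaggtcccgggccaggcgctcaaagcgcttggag

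RefSeq windows from 250 bases before to 50 bases after a start were found for 8 of the 10 genes, 13 windows in all, and were not matched for Cacna1a and Cacna1h. The window of Cacna2d1 held 7 GC boxes, the last of which runs over the start, and that of Cacna2d2 held 1. A GC box was present in 8 of the 13 windows and in 35.7% of the 32851 windows of all genes. The AP-1 motif TGANTCA, which is read by Atf3 and Jun, was in 0 of the 13 windows and in 7.81% of all windows. The cyclic AMP response element TGACGTCA was in 0 of the 13 and in 1.79% of all, and the STAT motif TTCNNNGAA was in 1 of the 13, a window of Cacna1c, and in 8.3% of all. The GC content was 80% for Cacna2d1 and 75.7% for Cacna2d2 against a median of 52.7% over all windows. Both strands were searched, and none of the 13 windows held matches of 2 different motifs. Letters in such a window are a description of the sequence and not evidence of binding.

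Levels of different genes were compared per length of gene, as the FPKM deposited by the authors (fragments scaled to gene length and library size). Cacnb3, which encodes a β subunit that partners N-type channels in neurons, had the highest mean FPKM in SH Sham, 91.2 ± 9.86 (SD, n = 3). Cacna2d1 followed at 38.1 ± 2.47, and Cacna2d3 at 19.8 ± 0.89 and Cacnb4 at 19.1 ± 1.36 did not differ beyond their spread, because their samples overlapped.

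Among the pores, Cacna1b (Cav2.2, the N-type channel that triggers release from nociceptor terminals) had the highest level, with a mean of 12.4 ± 1.01 FPKM, and Cacna1a (Cav2.1, P/Q-type) came next at 6.65 ± 0.33. Cacna2d2 stood at 4.53 ± 0.52 FPKM. Cacna1c (Cav1.2, L-type) at 3.44 ± 0.24 and Cacna1h (Cav3.2, the main T-type channel of DRG neurons) at 3.05 ± 0.23 again overlapped. The lowest was Cacna1e (Cav2.3, R-type) at 0.385 ± 0.041 FPKM.

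**Figure D1:**
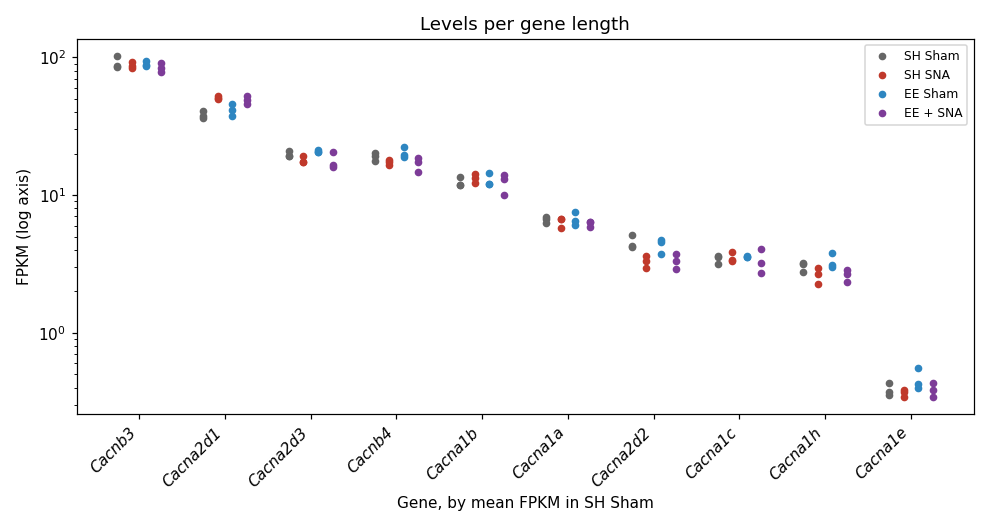
FPKM of the 10 genes on a log axis, 1 point per sample, coloured by group and ordered by the mean in SH Sham. Cacnb3 lies highest, from 78.9 to 102.5 FPKM over the 12 samples, and Cacna1e lowest, from 0.341 to 0.559. The ranges of Cacna2d3 and Cacnb4 overlap, as do those of Cacna2d2, Cacna1c and Cacna1h.

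In SH mice, SNA was followed by a higher level of Cacna2d1 and a lower level of Cacna2d2, while the other 8 genes were not called. Calls were made with edgeR's quasi-likelihood test on the read counts, at a Benjamini-Hochberg adjusted P-value of 0.05 over all genes tested. The 2 of 10 genes called stand beside 11.2% of all genes called in SH SNA against SH Sham. With EE + SNA against the same SH Sham samples, 2 of the 10 were called, beside 12.5% of all genes, and they were again Cacna2d1 and Cacna2d2. Because both comparisons use the same controls, the second is no independent repeat of the first. The second also changes housing and surgery together, so it does not give the change after SNA alone.

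In SH SNA against SH Sham, Cacna2d2 and Cacna2d1 had the largest absolute log2 fold changes of the 10 genes. Cacna2d1 had 308.7, 279.6 and 270.4 CPM in the 3 SH Sham samples and 384.6, 399.1 and 374.0 CPM in the 3 SH SNA samples. The groups did not overlap, and every SH SNA sample lay above every SH Sham sample. In SH SNA against SH Sham the log2 fold change of Cacna2d1 was 0.43 ± 0.06 (SE; 35.0% higher, edgeR adjusted P = 0.00075).

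In enriched mice Cacna2d1 had 353.6, 279.3 and 311.9 CPM in EE Sham and 401.4, 367.1 and 352.7 CPM in EE + SNA. The highest EE Sham sample lay just above the lowest EE + SNA sample, so that these groups overlapped. Its log2 fold change was 0.38 ± 0.07 in EE + SNA against SH Sham (adjusted P = 0.00415 in edgeR) and 0.24 ± 0.08 in EE + SNA against EE Sham (adjusted P = 0.132, not called).

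Cacna2d2, which encodes α2δ-2, went the other way. Its values were 26.1, 25.2 and 31.0 CPM in SH Sham and 17.8, 20.5 and 22.1 CPM in SH SNA. All 3 SH SNA samples lay below all SH Sham samples, and the log2 fold change was −0.44 ± 0.11 (SE, edgeR adjusted P = 0.0187), so that the level decreased by 26.4%. This call was lost without SH Sham sample 3 or without SH SNA sample 1.

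In EE the values of Cacna2d2 were 28.5, 22.4 and 28.7 CPM in EE Sham and 20.6, 22.6 and 18.1 CPM in EE + SNA. EE Sham sample 2 lay among the EE + SNA samples and the others lay apart. The log2 fold change of Cacna2d2 was −0.42 ± 0.10 in EE + SNA against SH Sham (edgeR adjusted P = 0.0211) and −0.37 ± 0.12 against EE Sham (adjusted P = 0.0932, not called). The call against SH Sham was lost without SH Sham sample 3, EE + SNA sample 1 or EE + SNA sample 3.

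**Figure D2:**
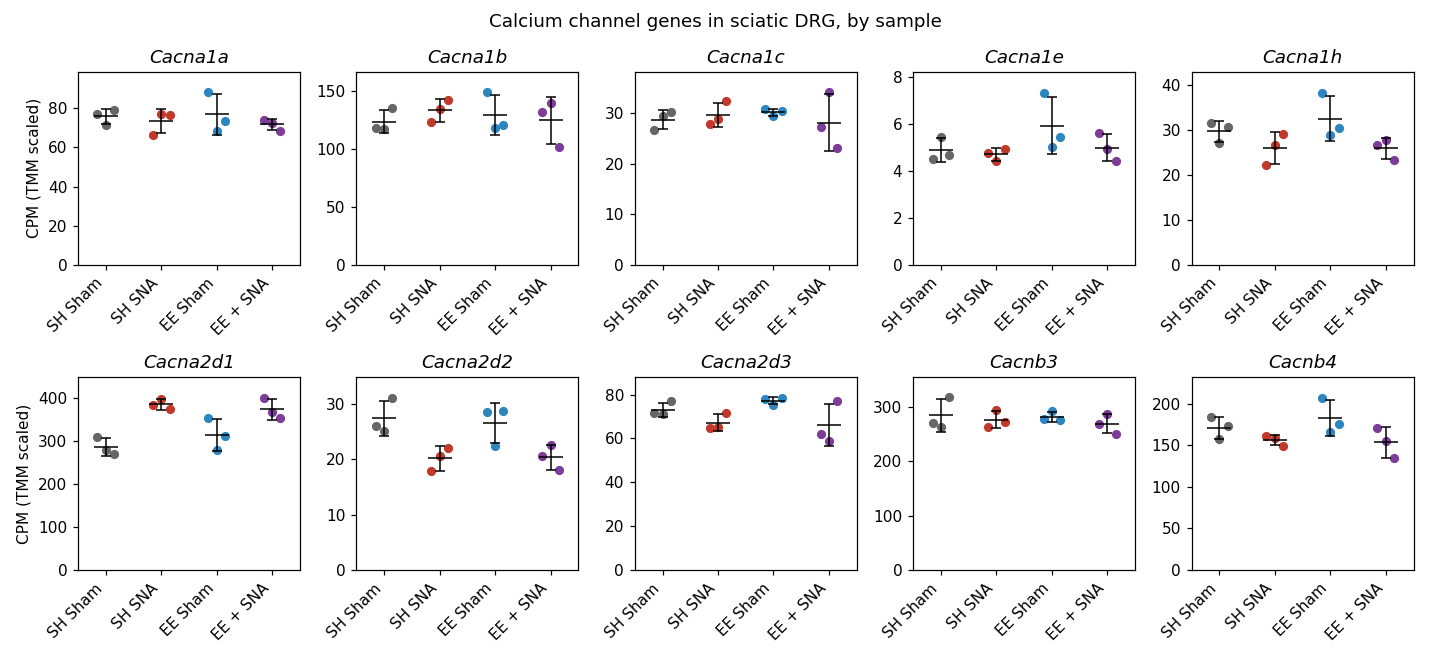
CPM (TMM scaled) of the 10 genes in each sample by group, on axes that start at 0, with the mean as a horizontal line and the SD as bars (n = 3). Cacna2d1 lies between 270.4 and 353.6 CPM in the sham samples and between 352.7 and 401.4 CPM in the SNA samples, and Cacna2d2 lies lower in both SNA groups than in SH Sham. For Cacna1a, Cacna1b, Cacna1c, Cacna1e and Cacnb3 the sham and SNA groups of the same housing overlap.

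Within EE mice, EE + SNA against EE Sham gave 0 of 10 genes called after adjustment with edgeR, where 4.83% of all genes were called, and 0 with DESeq2. At an unadjusted P-value of 0.05, the threshold of the study, 5 of the 10 passed, beside 20.6% of all genes. These were Cacna2d1, which was higher, and Cacna1h, Cacna2d2, Cacna2d3 and Cacnb4, which were lower. Adjusted P-values of the 5 ran from 0.0932 to 0.165. Surgery and dataset cannot be told apart in this comparison.

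The change after SNA was also estimated once over both housings, from 6 SNA and 6 sham samples in a fit of all 12. Here 5 of the 10 genes were called with edgeR, 1 higher and 4 lower, and 5 with DESeq2. Of all genes 21.1% were called in this comparison, 10.8% higher after SNA and 10.3% lower. The median log2 fold change was −0.11 over the 10 genes and 0.01 over all genes tested. The sham side of this estimate includes the EE Sham samples, which the study describes as an earlier dataset.

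Cacna2d1 was higher by a log2 fold change of 0.34 ± 0.06 (SE; 26.5% higher, edgeR adjusted P = 0.000386), and 5 of 6 SNA samples lay above every sham sample. Cacna2d2 was lower, with a log2 fold change of −0.41 ± 0.09 (adjusted P = 0.00266 in edgeR), and 5 of 6 SNA samples lay below every sham sample. Both calls held whichever sample was left out.

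Smaller falls were called for Cacna1h, Cacna2d3 and Cacnb4, which lie on the minus strand at chr17:25374285-25433783, chr14:28904943-29721864 and chr2:52428320-52676831. Cacna1h had 31.4, 27.0 and 30.6 CPM in SH Sham, 22.1, 26.5 and 29.1 in SH SNA, 38.2, 28.8 and 30.5 in EE Sham and 26.7, 27.8 and 23.3 in EE + SNA. The SH groups overlapped, and all EE + SNA samples lay below all EE Sham samples. Its log2 fold change over both housings was −0.26 ± 0.08 (edgeR adjusted P = 0.0358).

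Cacna2d3, the gene of α2δ-3, which supports synapse formation and hearing and does not bind gabapentinoids with high affinity, had 71.5, 71.1 and 76.8 CPM in SH Sham and 64.7, 65.2 and 71.6 in SH SNA. It had 78.0, 75.4 and 78.3 CPM in EE Sham and 62.2, 58.8 and 76.9 in EE + SNA, where sample 3 alone lay within the EE Sham range. Over both housings its log2 fold change was −0.18 ± 0.06 (edgeR adjusted P = 0.0406).

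Cacnb4 encodes a β subunit that in the brain partners P/Q-type channels. Its values were 183.5, 157.5 and 172.6 CPM in SH Sham, 161.1, 158.8 and 149.5 in SH SNA, 207.2, 166.4 and 175.3 in EE Sham and 171.2, 155.1 and 134.5 in EE + SNA. The groups overlapped in both housings, and the log2 fold change over both was −0.19 ± 0.06 (edgeR adjusted P = 0.0452). Exons of the antisense gene A430018G15Rik cover 16% of the exon bases of Cacnb4, and since the strand setting of the counting is not given, reads from the 2 genes cannot be told apart there.

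The calls of Cacna1h, Cacna2d3 and Cacnb4 depended on single samples, holding in 7, 4 and 3 of the 12 fits that left 1 sample out. All 3 were lost without SH Sham sample 3, SH SNA sample 1 or EE Sham sample 1. Cacna1h was lost also without SH Sham sample 1 or EE + SNA sample 3. Cacna2d3 was lost also without SH Sham sample 2, SH SNA sample 2 (the sample with muscle RNA), EE Sham sample 3 or EE + SNA samples 1 or 2. Cacnb4 held only without SH Sham sample 2, EE Sham sample 2 or EE + SNA sample 1.

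The other 5 genes were not called in any comparison with the usual scaling. Over both housings the log2 fold change was −0.07 for Cacna1a (95% confidence interval −0.20 to 0.06), 0.03 for Cacna1b (−0.13 to 0.20) and −0.02 for Cacna1c (−0.19 to 0.15). For Cacna1e it was −0.15 (−0.39 to 0.09) and for Cacnb3 −0.05 (−0.17 to 0.06). Differences within these intervals are not excluded by these samples.

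**Figure D3:**
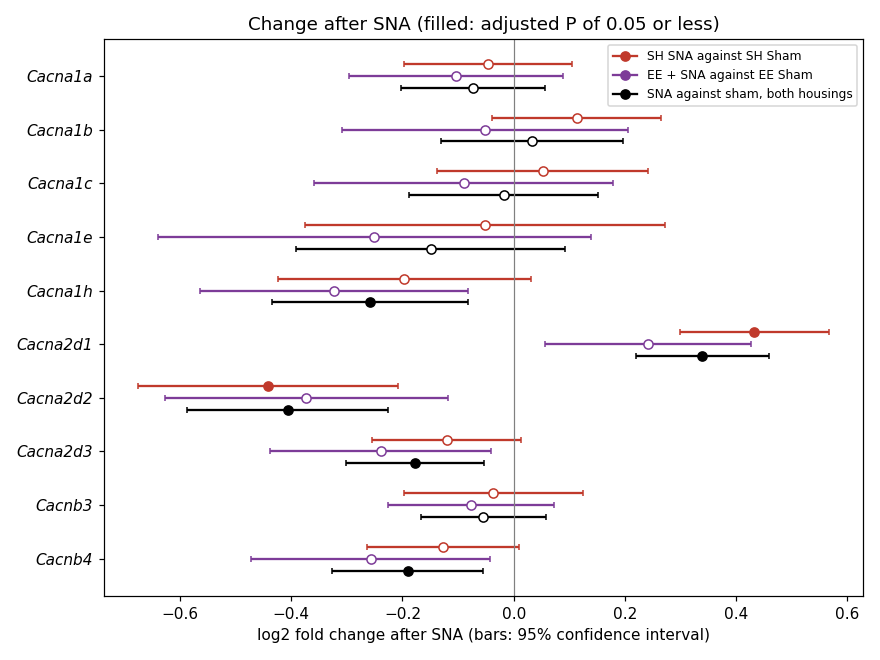
Log2 fold change after SNA with its 95% confidence interval for each gene, in SH mice, in EE mice and over both housings, with filled points where the adjusted P-value was 0.05 or less. Cacna2d1 lies to the right of 0 in all 3 estimates, at 0.43, 0.24 and 0.34, and Cacna2d2 to the left, at −0.44, −0.37 and −0.41. Over both housings Cacna1h, Cacna2d3 and Cacnb4 are filled as well.

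Whole ganglia were sequenced, so fewer cells of a type and less RNA per cell cannot be told apart, and markers of several cell types moved together with these genes. Over both housings 7 of the 10 sensory neuron genes were called lower after SNA and 0 higher, with a median log2 fold change of −0.18. Beside them 10.3% of all genes were called lower and 10.8% higher. Within SH 3 of the 10 were called lower, beside 11.2% of all genes called, and within EE 1, beside 4.83%. The summed level of the sensory neuron genes was 21170 to 22270 CPM in SH Sham and 18770 to 19860 in SH SNA. It was 19640 to 20640 CPM in EE Sham and 18210 to 19660 in EE + SNA. Of the Schwann cell genes, 6 of 7 were higher (summed level 6603 to 9164 CPM over EE Sham and 9540 to 12350 over EE + SNA, 7408 to 8980 over SH Sham and 7904 to 11480 over SH SNA). Within SH and within EE, 0 of the 7 Schwann cell genes were called after SNA. The part of the Schwann cells in the values of the channel genes was not tested.

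When the counts were scaled to the summed counts of the sensory neuron genes, a scaling chosen after seeing the data, the median of all genes moved to 0.14 on the log2 scale. Cacna2d1 was then called at 0.47 (edgeR adjusted P = 1.58e-05) and Cacna2d2 at −0.27 (edgeR adjusted P = 0.0243). Relative to that scale Cacna1h had a log2 fold change of −0.13, Cacna2d3 of −0.05 and Cacnb4 of −0.06, and none of these 3 was called. In SH SNA against SH Sham this scaling gave calls for Cacna2d1 and for Cacna1b (0.29, edgeR adjusted P = 0.0107), and Cacna2d2 was not called (−0.27, edgeR adjusted P = 0.0785). The median of all genes was then 0.18. The list holds the neurofilament genes Nefh, Nefl and Nefm, which were themselves lower after SNA.

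The makeup of the α2δ class differed between sham and cut animals, which is given here without a test. Cacna2d1 gave 61.0% ± 2.69 (SD, n = 3) of the summed α2δ FPKM in SH Sham and 70.5% ± 1.83 in SH SNA, 62.2% ± 2.07 in EE Sham and 70.0% ± 3.26 in EE + SNA. The lowest SNA sample stood at 66.3% and the highest sham sample at 64.5%, so the 6 samples of each surgery did not overlap. Cacna2d2 gave 7.26%, 4.57%, 6.50% and 4.75% in the same order of groups, and Cacna2d3 gave 31.8%, 24.96%, 31.2% and 25.2%. The Cacna2d3 shares overlapped in EE, with EE + SNA sample 3 at 29.4% and EE Sham sample 1 at 28.96%. Shares within a class are bound together, so a higher share of Cacna2d1 lowers those of the other genes.

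The ratio of Cacna2d1 to Cacna2d2 in FPKM was 9.55, 8.95 and 7.02 in SH Sham and 17.4, 15.7 and 13.6 in SH SNA. In EE Sham it was 9.99, 10.05 and 8.76, and in EE + SNA 15.7, 13.1 and 15.7. All 6 SNA samples lay above all 6 sham samples. The ratio is taken within a sample and does not depend on how libraries were scaled. It sets the gene called higher over the gene with the largest fall in these same samples. Its separation is thus a description and adds no support to those calls.

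**Figure D4:**
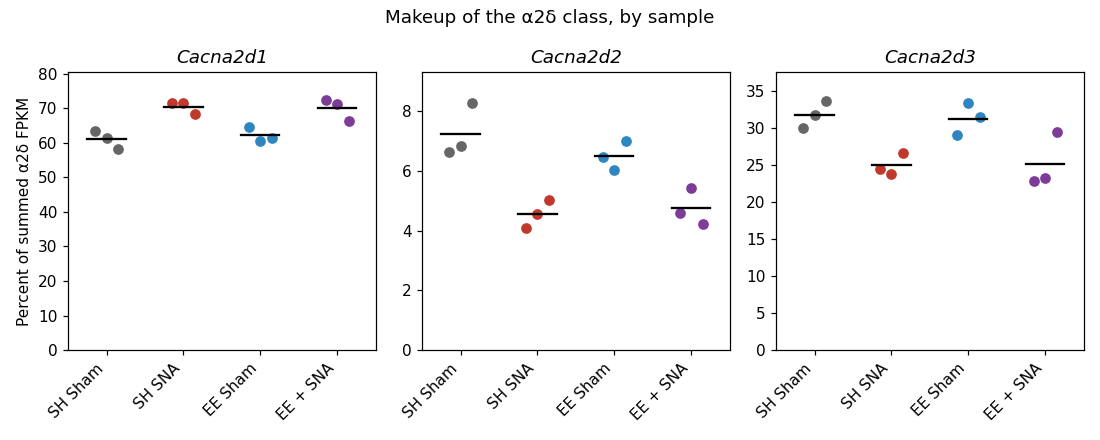
Share of each α2δ gene in the summed FPKM of the class, in percent, on axes that start at 0, 1 point per sample with the group mean as a line. Cacna2d1 lies between 58.1% and 64.5% in the sham samples and between 66.3% and 72.5% in the SNA samples, and Cacna2d2 lies between 6.03% and 8.27% in sham and between 4.11% and 5.44% in SNA samples.

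The summed α2δ FPKM was 62.5 ± 1.75 (SD, n = 3) in SH Sham, 72.4 ± 0.91 in SH SNA, 66.7 ± 4.43 in EE Sham and 70.1 ± 1.94 in EE + SNA. Between the SH groups the sums did not overlap, and between the EE groups they did. The pores summed to 27.7 ± 1.66, 28.2 ± 2.14, 28.7 ± 2.57 and 26.7 ± 3.33 FPKM in that order, with overlap throughout. Cacna1b gave 44.9% of the pore FPKM in SH Sham and 47.1% in SH SNA, and Cacna1h gave 11.0% in SH Sham, 9.30% in SH SNA, 11.5% in EE Sham and 9.83% in EE + SNA. Cacnb3 gave between 72.1% and 76.7% of the β FPKM over all 12 samples.

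Housing was compared in sham and in cut animals. In EE Sham against SH Sham, 0 of the 10 genes were called with edgeR, where 0.00616% of all genes were called, and 0 with DESeq2. At the unadjusted threshold 0 of the 10 passed, beside 2.97% of all genes. In EE + SNA against SH SNA, 0 of the 10 were called with either tool, beside 0% of all genes in edgeR, and at the unadjusted threshold 0 of the 10 passed, beside 4.1% of all genes.

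Cacna2d1 had the smallest unadjusted P-value of the 10 in EE Sham against SH Sham, 0.127, with a log2 fold change of 0.14 (95% confidence interval −0.04 to 0.31). In EE + SNA against SH SNA its log2 fold change was −0.05 (−0.18 to 0.09), and that of Cacna2d2 was 0.03 (−0.22 to 0.27). For Cacna1e, the gene with the fewest reads, the interval in EE Sham against SH Sham ran from −0.10 to 0.64. Differences within that interval are not excluded.

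Whether the change after SNA differed between the housings was tested as an interaction over all 12 samples. It was called for 0 of the 10 genes with edgeR, beside 0% of all genes, and for 0 with DESeq2. At the unadjusted threshold 0 of the 10 passed, beside 2.61% of all genes. The smallest unadjusted P-value was 0.124, for Cacna2d1, whose change in EE differed from that in SH by −0.18 on the log2 scale (95% confidence interval −0.42 to 0.06). For Cacna2d2 the difference was 0.08 (−0.28 to 0.44). The call of Cacna2d1 in SH but not in EE is therefore not shown to be a difference between housings.

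Samples of a group tended to be high or low for several of the 10 genes at once. EE Sham sample 2 was the lowest of its group for 9 of the 10 and EE + SNA sample 3 for 9 of the 10. EE Sham sample 1 was the highest of its group for 7 genes, and SH Sham sample 2 and SH SNA sample 1 were each the lowest for 7. The 10 genes are thus not separate repeats of one measurement.

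Over the 12 samples, the genes whose log2 CPM followed Cacna2d1 most closely were Tsc22d2 (Pearson r of 0.969), Cd44 (0.968), Otud4 (0.960), Ube2q2 (0.959) and Hsd17b7 (0.959). Cd44 encodes a cell surface receptor for hyaluronan and Hsd17b7 an enzyme of sterol synthesis. All 5 were higher after SNA over both housings, with log2 fold changes from 0.22 for Otud4 to 0.45 for Cd44. The samples fall into sham and SNA groups, so these correlations describe a shared difference between groups and carry no test.

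The other subunit genes of the channel family were counted in the same way. Of 16, 12 passed the filter, and over both housings 0 were higher and 3 were lower, with a median log2 fold change of −0.07, where 10.8% of all genes were higher and 10.3% lower. The 3 called of 12 are near the 21.1% of all genes called in this comparison. Cacna1f, Cacna2d4, Cacng1 and Cacng6 did not pass the filter, with at most 7, 6, 11 and 13 reads in a sample. Cacna1s, the pore of skeletal muscle, was higher at the unadjusted threshold and was not called (log2 fold change 1.16, edgeR adjusted P = 0.139). It had 7.86 CPM in SH SNA sample 2, the sample with high muscle genes, and between 0.271 and 1.93 CPM in the others.

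Cacng5 had 22.5, 22.2 and 23.5 CPM in SH Sham, 15.6, 13.4 and 13.3 in SH SNA, 23.0, 20.8 and 20.3 in EE Sham and 14.7, 15.3 and 13.4 in EE + SNA. All 6 SNA samples lay below all 6 sham samples, and the log2 fold change was −0.62 ± 0.07 (SE, edgeR adjusted P = 4.88e-06). Cacng2, the gene of stargazin, fell by 0.41 on the log2 scale (edgeR adjusted P = 0.00127). Both belong to the γ family, whose members Cacng2 and Cacng5 serve chiefly as auxiliary subunits of AMPA receptors. Cacnb2, another β subunit, fell by 0.36 (edgeR adjusted P = 0.0233), from 5.03 ± 0.28 CPM in SH Sham and 5.20 ± 0.11 in EE Sham to 4.07 ± 0.78 in SH SNA and 3.89 ± 0.16 in EE + SNA (SD, n = 3).

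Of 30 genes whose proteins bind or regulate these channels, 28 passed the filter, and over both housings 2 were higher and 5 lower, with a median of −0.07. The 7 called of 28 stand beside 21.1% of all genes called, so their number is near the background. Rem2, a small GTPase of the RGK family that binds β subunits and inhibits calcium currents, had 7.74, 5.74 and 6.35 CPM in SH Sham and 3.36, 1.94 and 3.42 in SH SNA. It had 6.86, 6.53 and 6.74 CPM in EE Sham and 3.47, 3.53 and 3.47 in EE + SNA. The surgeries did not overlap, and Rem2 fell by 1.06 on the log2 scale (edgeR adjusted P = 1.66e-05).

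Stac, an adaptor that binds L-type channels and slows their inactivation, had 77.3, 83.1 and 89.7 CPM in SH Sham and 127.7, 125.0 and 118.6 in SH SNA. In EE Sham it had 79.4, 77.5 and 89.5 CPM and in EE + SNA 111.1, 115.3 and 113.1. Every SNA sample lay above every sham sample, and the log2 fold change was 0.52 ± 0.05 (SE, edgeR adjusted P = 1.16e-06). Lrp1, an endocytic receptor that takes part in α2δ trafficking, was also higher, near the threshold (0.22, edgeR adjusted P = 0.0498). It had 67.5, 79.1 and 80.4 CPM in SH Sham and 83.0, 72.7 and 106.7 in SH SNA. The SH groups of Lrp1 thus overlapped, and its EE groups did not. For genes of the lists, calls were not checked with a sample left out.

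Genes of the presynaptic release site and of calmodulin signalling were among those that fell. Rims1, which tethers channels at the active zone through β subunits, had a log2 fold change of −0.33 (edgeR adjusted P = 0.00213), and Rimbp2, which links RIM proteins to channel pores, one of −0.34 (edgeR adjusted P = 0.0170). Camk2b, a kinase activated by calcium and calmodulin, had one of −0.30 (edgeR adjusted P = 0.000499). Cbarp, listed under the older symbol Dos, encodes a protein that binds β subunits and lowers calcium currents, and its log2 fold change was −0.19 (edgeR adjusted P = 0.00771). Rem1 and Rrad, 2 other RGK genes, did not pass the filter.

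Calcium stores and clearance were described by 25 genes, all of which passed the filter, and 2 were higher and 6 lower over both housings, with a median of −0.02, beside 10.8% of all genes higher and 10.3% lower (21.1% called). Itpr1, the inositol trisphosphate receptor that releases calcium from the endoplasmic reticulum, had 23.1, 25.3 and 22.9 CPM in SH Sham and 56.4, 48.8 and 54.2 in SH SNA. It had 23.2, 23.9 and 28.0 CPM in EE Sham and 58.0, 48.3 and 50.9 in EE + SNA. All SNA samples lay above all sham samples, with a log2 fold change of 1.11 ± 0.06 (SE, edgeR adjusted P = 5.99e-09). Ryr3, a ryanodine receptor of the same store, was higher by 0.41 (edgeR adjusted P = 0.000984).

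Of the 4 plasma membrane calcium pump genes, Atp2b2 and Atp2b3 were called lower, and Atp2b1 (−0.15) and Atp2b4 (0.13) were not called. Atp2b2, a plasma membrane calcium pump, had 105.0 ± 3.13 CPM in SH Sham, 73.0 ± 7.96 in SH SNA, 104.0 ± 14.1 in EE Sham and 68.8 ± 7.85 in EE + SNA (SD, n = 3). It fell by 0.56 on the log2 scale (edgeR adjusted P = 2.64e-05) and the related pump Atp2b3 by 0.30 (edgeR adjusted P = 0.0223). Mcu, the pore of the mitochondrial calcium uniporter, fell by 0.32 (edgeR adjusted P = 0.000557), and Calb1, the buffer calbindin, by 0.19 (edgeR adjusted P = 0.0167). The other 2 buffers of the list, Calb2 (−0.20) and Pvalb (0.14), were not called.

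The store-operated channel gene Orai2 fell by 0.29 (edgeR adjusted P = 0.00161) and the ryanodine receptor Ryr2 by 0.17 (edgeR adjusted P = 0.0423). The direction was thus mixed within the stores themselves, with Itpr1 and Ryr3 higher and Ryr2 lower.

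**Figure D5:**
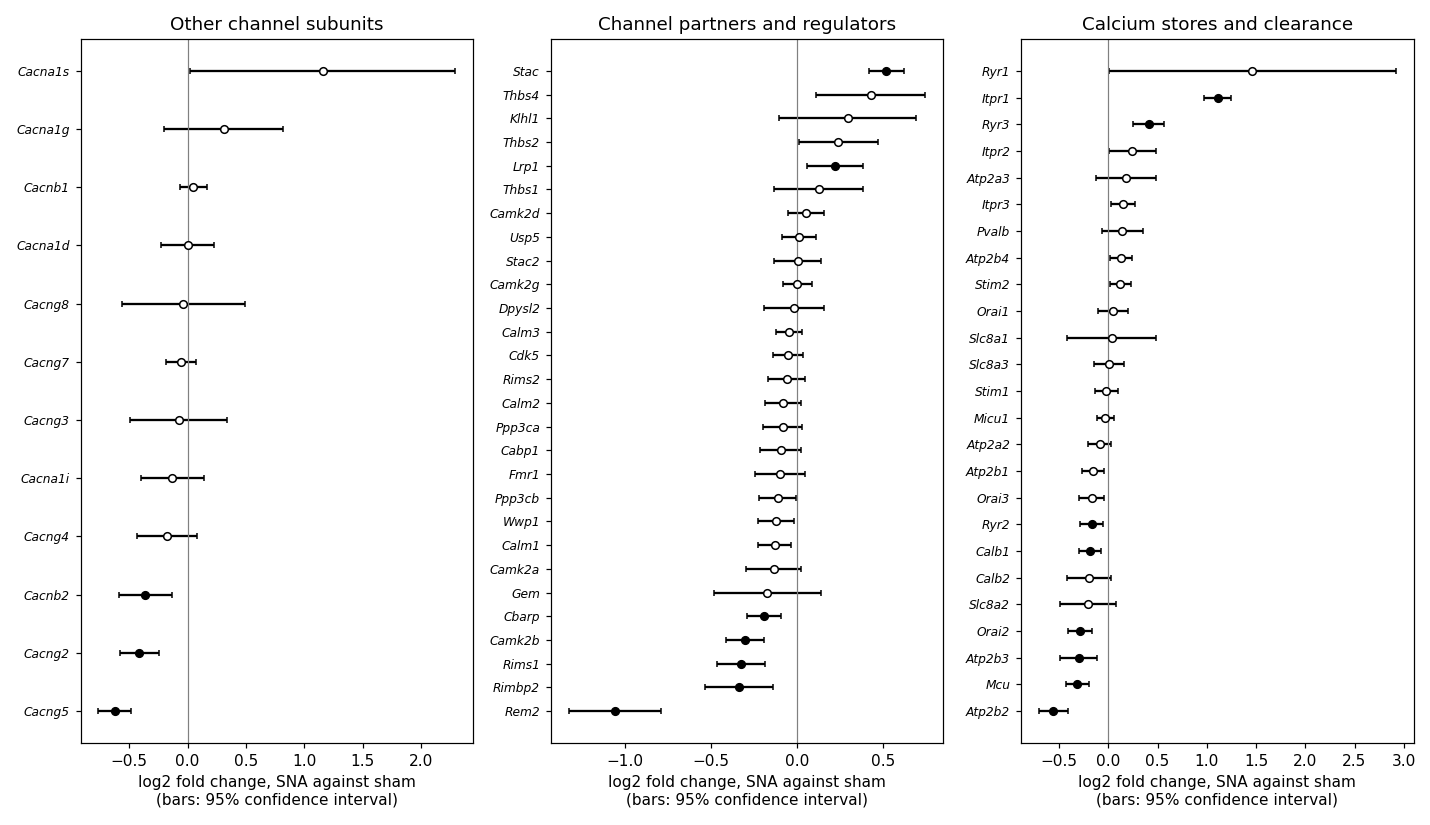
Log2 fold change over both housings with its 95% confidence interval for the tested genes of 3 lists, filled where the adjusted P-value was 0.05 or less. Among the called genes, Cacng5 at −0.62, Rem2 at −1.06 and Atp2b2 at −0.56 lie lowest in their lists, and Stac at 0.52 and Itpr1 at 1.11 lie highest in theirs.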

How the data were processed

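Whole sciatic DRG of 2 mice were pooled in each of 12 RNAseq samples, which form 4 groups. The authors aligned reads to mm10 with TopHat2 2.0.12 and Bowtie2 2.2.3, with SAMtools 0.1.19 for sorting, and the deposited counts are whole numbers of reads per gene name from HTSeq (0.6.0 per the labels; the strand setting is not given in the sources used here). The authors' FPKM are reads divided by gene length and library total. The gene lengths behind them were not checked here, and the order of levels and the class shares rest on those lengths. Per the submitters' processing notes edgeR 3.8.6 was used by the authors.

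TMM scaling and the filterByExpr filter (10 counts, total of 15) were applied in edgeR 4.0.16 under R 4.3.3, leaving 16238 of 44345 names and at least 99.89% of the counted reads. HTSeq's 5 summary lines were left out. Its line for reads assigned to no gene feature held 46.7% to 47.6% of each sample. Pairs of groups were fitted on their 6 samples with glmQLFit and glmQLFTest, two-sided, and the interaction and the change over both housings on all 12. Replicates differed beyond sampling noise in every group (chi-square per degree of freedom 3.87 to 8.53). Depth sets the precision, and the 52 to 113 reads on Cacna1e gave the widest intervals.

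The named genes were the 10 channel genes, up to 8 genes called over both housings in each of 3 lists, markers set beside a result, and the 5 genes of highest correlation with the channel gene of smallest P-value. The channel genes and lists were chosen with earlier results of these data known, so their counts are descriptions. Lists of satellite glia (1 of 6 higher), macrophages (4 of 8 higher), neutrophils (1 of 5 higher), skeletal muscle (0 of 8), sympathetic neurons (0 of 2), endothelium (1 of 5 higher), fibroblasts (2 of 5 higher), touch and position neurons (1 higher and 1 lower of 7), nociceptors (2 of 8 lower) and injured neurons (6 of 6 higher) were counted over both housings among genes that passed the filter. In that comparison 10.8% of all genes were called higher and 10.3% lower. Genes were placed on GRCm38, and promoter windows came from RefSeq. Alternatives were the likelihood ratio test, DESeq2 1.42.0, library size scaling, other filters, limma 3.58.1 on log2 FPKM plus 1 or 0.1, 1 fit over all groups, a block for the replicate number, each sample left out and, added after seeing the data, scaling to neuron genes. The fits were also run on simulated counts with known changes. The outcome is not reported here, and no result above rests on it. Figures used Python 3.11.15 and Matplotlib 3.10.9.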

Additional observations from a re-analysis of the deposited data

How the results depend on the processing

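The calls of Cacna2d1 in SH SNA against SH Sham, and of Cacna2d1 and Cacna2d2 over both housings, held under every alternative run, and 0 called values changed direction. Of 1220 alternative values for the 10 genes, 85, all uncalled, changed sign. The number of the 10 genes called in SH SNA against SH Sham was 2, and 1 with limma on log2 of FPKM plus 1 or plus 0.1, and 1 to 2 with 1 sample left out. In EE + SNA against SH Sham it was 2, then 1 with limma on FPKM plus 1, 0 with limma on FPKM plus 0.1 and 1 with scaling to the neuron genes, and 1 to 2 with 1 sample left out, where Cacna2d2 was lost without SH Sham sample 3, EE + SNA sample 1 or EE + SNA sample 3 and Cacna2d3 was called without the last. In EE + SNA against EE Sham the 0 became 1 with the likelihood ratio test (Cacna2d2), 4 without the filter (Cacna1h, Cacna2d1, Cacna2d2 and Cacnb4) and 1 with neuron scaling (Cacna2d1), and ran from 0 to 1 with 1 sample left out. Cacna2d1 was called without EE Sham sample 1, Cacna2d2 without EE Sham sample 2 and Cacna2d3 without EE + SNA sample 3. Over both housings the 5 became 2 with limma on FPKM plus 0.1, 2 with neuron scaling and 2 to 5 with 1 sample left out. The housing comparisons and the interaction gave 0 of the 10 throughout. The cause of these differences was not tested.

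Counts over all genes ran from 967 to 4335 (1823 as reported) in SH SNA and from 1141 to 5248 (2031) in EE + SNA against SH Sham, from 214 to 1720 (785) in EE + SNA against EE Sham, and from 2756 to 5762 (3433) over both housings. They ran from 0 to 48 (1) in EE Sham against SH Sham, from 0 to 18 (0) in EE + SNA against SH SNA and from 0 to 77 (0) for the interaction. Scaling to the neuron genes moved the median log2 fold change of all genes to 0.18 in SH SNA and 0.20 in EE + SNA against SH Sham, and to 0.12 in EE Sham against SH Sham.

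The labels number the samples of each group from 1 to 3. Same-numbered samples deviated together with a lowest r of 0.0566 in EE Sham against SH Sham, 0.0818 in EE + SNA against SH SNA and below 0 in the other pairs of groups, so the numbers were not taken to pair samples. In EE + SNA against SH SNA every sample correlated best with its own number, a hint from the data. With the replicate block, 2 of the 10 genes were called in SH SNA and 1 in EE + SNA against SH Sham, 1 in EE + SNA against EE Sham, 0 in both housing comparisons and the interaction, and 5 over both housings.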
